A study of Rattus norvegicus with 145 samples.

Results

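The comparison described here set striatum from heterozygous Q130 knock-in rats (KI) against striatum from wild-type rats (WT) at 6 months of age. All animals were males of the Long Evans strain, and each group held 3 libraries, 1 per animal, so 6 of the 145 RNA-seq libraries of the series entered the comparison. The other libraries came from striatum, cortex and cerebellum at 10, 19 and 24 months, both sexes, and from striatum at 2 months. The series' design text says that the 2-month and 6-month libraries were carried over from an earlier series to monitor reproducibility and batch effects. No treatment is named in the labels, and KI and WT differed by genotype only, as far as the labels say.

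In Huntington's disease, a CAG repeat of the huntingtin gene is expanded, and the glutamine stretch it encodes is lengthened. The striatum, made up mostly of medium spiny neurons that receive cortical and dopaminergic input, is the brain region best known for being affected. Loss of transcripts that are enriched in striatal neurons is a well-known feature of many models with long repeats. A knock-in model carries the expansion in the animal's own huntingtin gene.

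The deposited tables list Ensembl rat identifiers and no symbols. The gene lists and cell type markers meant for this tissue were therefore not used, and the identifier of the targeted gene was not looked up, so the genotype labels were not checked against it. Genes are described below by identifier, by rank, by relative length and by the brain region in which they are enriched. The 6 libraries held 28427177 to 32595926 estimated counts and 18043 to 18401 detected genes. As a check of tissue, region-enriched genes (a level of 1 CPM or more that exceeds either other region by 4-fold or more) were picked in WT libraries of 24 months. Over all genes of each group, the 6-month libraries had a mean level of 3.07 log2 CPM for striatum-enriched genes, 0.155 for cortex-enriched genes and 0.491 for cerebellum-enriched genes. WT striatum of 19 months had 3.36, 0.0568 and 0.574, whereas WT cortex had 0.325, 3.22 and 0.735.

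Few genes were called as different between the genotypes. Of 15377 genes tested with edgeR's quasi-likelihood test, 2 passed a Benjamini-Hochberg adjusted p of 0.05, which is 0.013% of those tested, and both rose in KI. No gene fell. At an unadjusted p under 0.05 there were 1264 genes, 872 higher and 392 lower in KI, and the median log2 difference over all tested genes was -0.0146. Levels are CPM, counts scaled to library depth with TMM factors, unless stated otherwise, and a log2 difference is KI minus WT.

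The first of the called genes, ENSRNOG00000024889, had 4.41, 4.74 and 4.87 CPM in KI 1 to KI 3 and 0.186, 0.19 and 0.182 CPM in WT 1 to WT 3. All 3 KI libraries were far above all 3 WT libraries, and both groups were tight. The mean was 4.68 ± 0.237 CPM (SD, n = 3) in KI and 0.186 ± 0.00396 CPM (SD, n = 3) in WT, which is 25.2-fold. The log2 difference was 4.62 ± 0.238 (SE), with an adjusted p of 6.09e-05 by edgeR. An exact 2-sided permutation test of its levels gave p = 0.1, the smallest that 3 against 3 allows.

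The other called gene, ENSRNOG00000030069, had 0.974, 1.05 and 1.09 CPM in the KI libraries and was listed at 0 in all 3 WT libraries at this precision. Against a floor of 3 counts over the WT group, KI was at least 31.7-fold higher. The edgeR adjusted p was 0.0477, just under the threshold, and the call was lost in 11 of 20 alternatives (adjusted p from 0.00208 to 1 where one was given). It was lost without KI 1, KI 2, KI 3 or WT 3, with edgeR adjusted p of 0.103, 0.215, 0.164 and 0.131. Its fitted log2 difference of 8 ± 0.743 (SE) depends on the prior count because WT had no reads.

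Neither called gene kept this pattern at 2 months. ENSRNOG00000024889 had 0.2513, 0.1718 and 0.2797 CPM in the 2-month KI libraries and 0.2652, 0.2235 and 4.758 CPM in the WT libraries, so the 1 high library was WT. ENSRNOG00000030069 had 2.017 and 2.04 CPM in 2 of the 2-month WT libraries and nearly 0 in the other WT library and in all 3 KI libraries. The difference of genotype differences, 6 minus 2 months, was tested in the 12 libraries of both ages, and 0 of 15737 genes passed with edgeR. At an unadjusted p under 0.05 there were 1064 genes, and DESeq2 called 1. Each of the 4 genes named here had an adjusted p of 0.709 in that edgeR test.

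**Figure D1:**
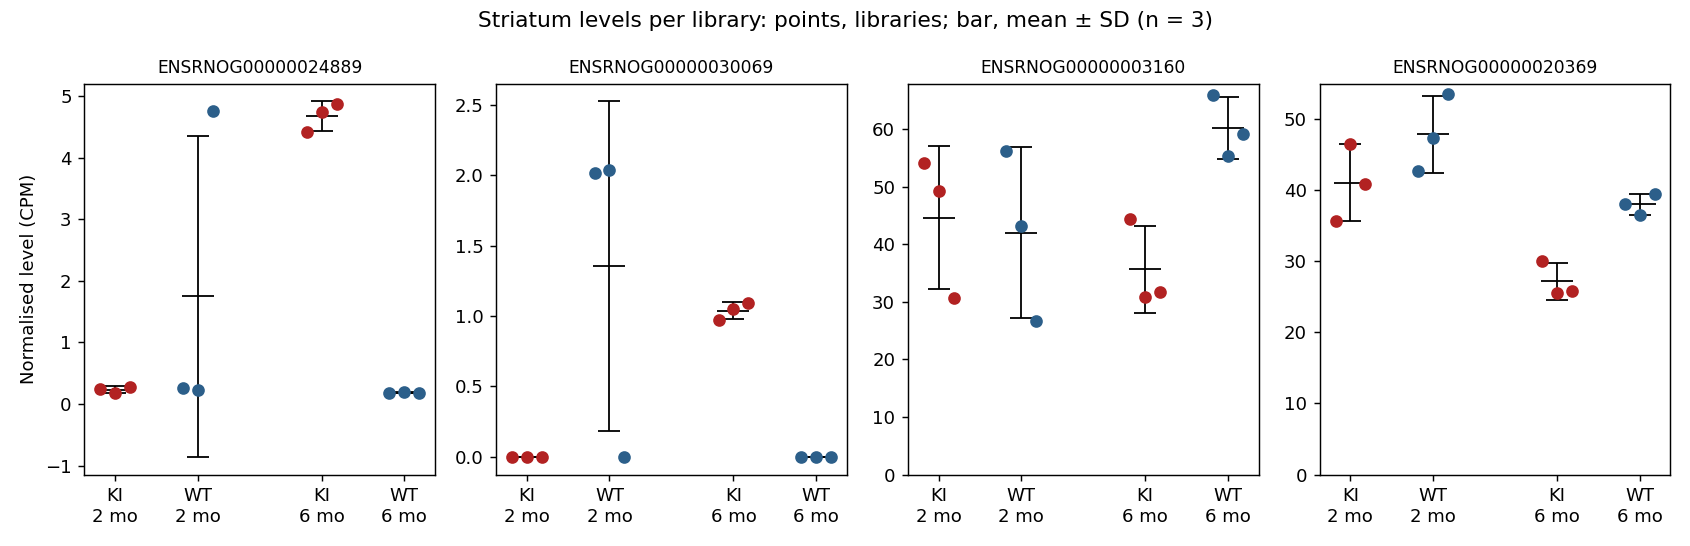
Level in CPM (vertical axis, a separate scale per panel) of the 4 named genes in KI and WT striatum at 2 and 6 months; points are libraries and bars the mean ± SD (n = 3). At 6 months ENSRNOG00000024889 lay between 4.41 and 4.87 CPM in KI and near 0.19 CPM in WT, while at 2 months the only high library was WT.

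The estimated counts behind both genes came in steps. ENSRNOG00000030069 had 32.0833 counts in each of the 3 KI libraries, although these libraries differed in depth. Over all 145 libraries, it was under 0.01 counts in 128, at 32.0833 to 32.0834 in 13 and at 64.1667 to 64.1668 in 4, with no other value. Outside the 6-month libraries, 7 of the 74 from KI animals and 7 of the 65 from WT animals were on.

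ENSRNOG00000024889 had 144.52, 144.002 and 143.298 counts in the KI libraries and 5.9007, 5.8909 and 5.0553 counts in the WT libraries. Over the series, 107 libraries had 0.4653 to 8.81 counts, and none had between 20 and 90. Of the rest, 4 libraries had 97.33 to 117 counts, 19 had 141.6 to 146.1, 1 had 215.8, 10 had 271.3 to 284 and 4 had 357.4 to 397.2. The 3 KI libraries of 6 months were thus in the cluster near 143.5 counts and the 3 WT libraries in the low one.

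High counts of ENSRNOG00000024889 were found in both genotypes elsewhere. In striatum at the other ages, counts were above 20 in 9 of the 30 KI libraries and 9 of the 27 WT ones. In cortex the numbers were 6 of 27 and 3 of 24, and in cerebellum 5 of 17 and 3 of 14. Regions of the same animal often differed. Among 51 animals with more than 1 region sequenced, 1 was above 20 counts in every region, 27 in some and 23 in none. For ENSRNOG00000030069, 0 of these animals were on in every region and 11 in some.

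Steps in exact multiples were found in few genes of the table. Of 32883 genes, 9 had only 0 or whole multiples (within 0.01) of a unit over 5 counts, with 3 or more libraries above 0, and 6 of the 9 were among the genes tested at 6 months. ENSRNOG00000024889 is not counted there, since its clusters are not exact multiples. The rule leaves out genes with such looser steps, so how common those are was not tested. With the stepwise genes and ENSRNOG00000024889 taken out, edgeR called 0 genes and 1259 had an unadjusted p under 0.05. Both called genes were among those taken out, and no other gene had passed. The 0 calls thus follow largely from the choice of genes. Estimated counts share reads among similar transcripts. Whether these genes have near-identical copies was not looked up here, so both calls are uncertain, and what makes the steps was not tested.

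**Figure D2:**
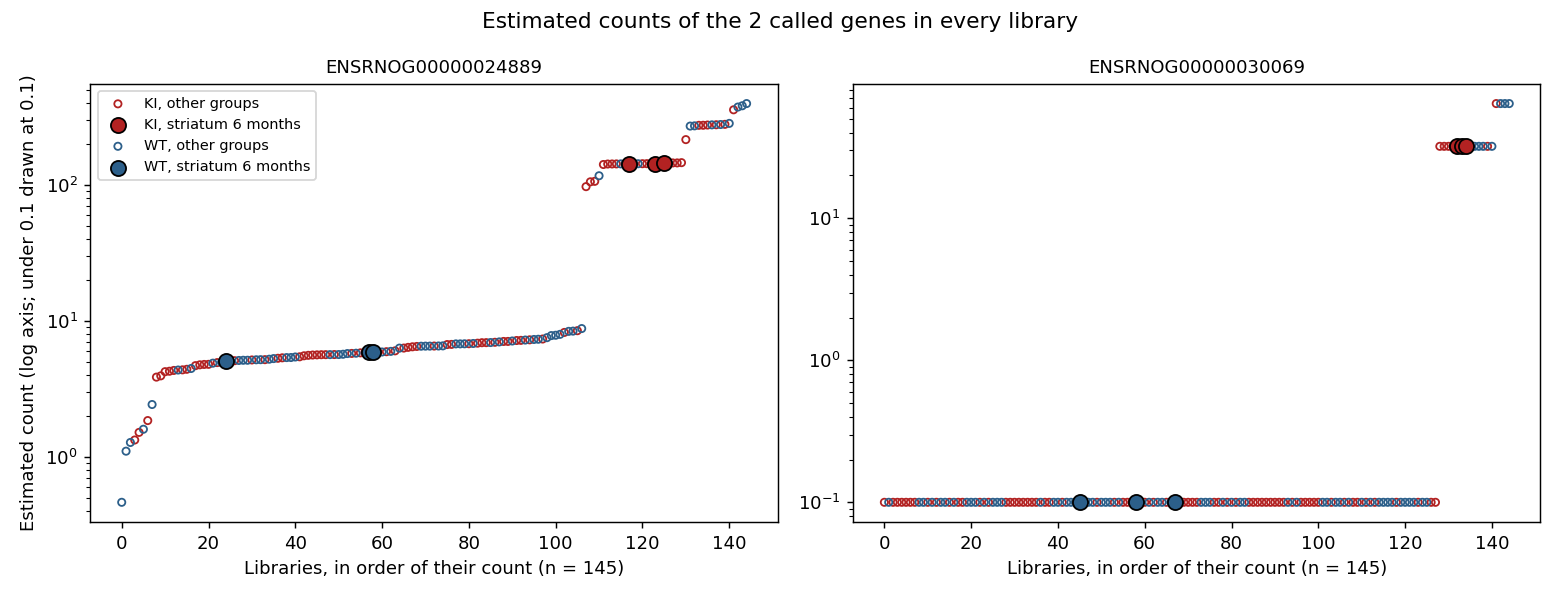
Estimated count (vertical log axis) of the 2 called genes in each of the 145 libraries, in order of the count; filled points are the 6-month striatum libraries and open points all others. For ENSRNOG00000030069 the counts lie at 0, 32.0833 or 64.1667, and both genotypes occur at each level.

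The gene with the third smallest p behaved in the opposite direction. It falls outside the rule for named genes and was chosen after its values were seen. It had 46.3, 33 and 21.4 estimated counts in WT 1 to WT 3, and 0.4374 counts in KI 1 with none in KI 2 and KI 3. Against a floor of 3 counts over the KI group, WT was at least 33.2-fold higher, with an adjusted p of 0.0779 by edgeR. Elsewhere in the series counts of this gene were above 20 in 7 of the 74 KI libraries and 5 of the 65 WT ones. At 2 months its highest library was a KI library.

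Among genes with lower levels in KI, the 2 with the smallest p at a mean of at least 1 log2 CPM did not pass. ENSRNOG00000003160 had 44.3, 30.8 and 31.7 CPM in KI and 65.9, 55.3 and 59.2 CPM in WT. The groups did not overlap, with means of 35.6 ± 7.56 and 60.1 ± 5.34 CPM (SD, n = 3 each). Its log2 difference was -0.755 ± 0.143 (SE) and its edgeR adjusted p 0.32. At 2 months its KI libraries had 30.58 to 54.01 CPM, within the WT range of 26.72 to 56.23 CPM.

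ENSRNOG00000020369 had 30.1, 25.6 and 25.8 CPM in KI and 38, 36.5 and 39.5 CPM in WT. Its log2 difference was -0.483 ± 0.0972 (SE), with an edgeR adjusted p of 0.32. DESeq2 called both of these genes, with adjusted p of 0.00114 and 0.0125. At 2 months ENSRNOG00000020369 had 35.7, 46.56 and 40.84 CPM in KI and 42.74, 47.35 and 53.54 CPM in WT, which overlap. At 10 months it ranged from 19.6 to 47.8 CPM in 10 KI libraries and from 24.4 to 882 CPM in 10 WT libraries.

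The next genes by p were all higher in KI and none passed. Those ranked 4 to 12 had log2 differences from 0.496 to 1.92 and adjusted p from 0.0872 to 0.32 by edgeR. The gene ranked 4 had 17.5, 22.3 and 21.6 CPM in KI and 11.1, 9.08 and 10.6 CPM in WT. At 2 months the same gene had 10.6 to 16 CPM in KI and 14.2 to 17.6 CPM in WT, so its means were in the opposite order. The gene ranked 5 had 4.08, 6.52 and 5.62 CPM in KI and 0.866, 1.74 and 1.67 CPM in WT. The most abundant of them, ranked 10, had 331, 363 and 365 CPM in KI and 261, 200 and 178 CPM in WT. These 3 examples were chosen after their values were seen. In each, the groups were separate, and in the first and last of them WT 1 was the WT library nearest to KI.

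Groups that did not overlap were common and their differences small. With 3 against 3, separation in either direction has an exact permutation p of 0.1 for a gene, so many genes separate without a genotype difference. In 1173 genes all 3 KI libraries were above all 3 WT libraries, which is 7.63% of those tested, and in 1091 genes, 7.1%, all 3 were below. The median log2 difference was 0.345 in the first set and -0.212 in the second. Of 1026 genes in the first set with a mean of at least 1 log2 CPM, 12 differed by at least 2-fold, and of 954 in the second set, 5 did. These shares describe the comparison itself and are not a separate test.

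The WT libraries differed among themselves more than the KI libraries did. Over 12944 genes with a mean of at least 1 log2 CPM, the median SD of log2 CPM was 0.0829 in KI and 0.176 in WT, and 10511 genes, 81.2%, were more variable in WT. Spearman correlations between KI libraries were 0.9954 to 0.9962. WT 1 correlated at 0.993 to 0.9942 with the KI libraries, but at 0.986 with WT 2 and 0.989 with WT 3. WT 2 and WT 3 correlated at 0.9883 with each other. WT 3 correlated at 0.9886 to 0.9917 with the KI libraries, and WT 2 at 0.9843 to 0.9898. By this measure WT 1 was nearer to each KI library than to either of the other WT libraries, WT 3 was nearer to each KI library than to WT 2, and WT 2 was nearer to KI 1 than to either WT library. The KI libraries were nearest to each other and to WT 1.

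The sample descriptions carry an identifier whose leading part is shared by WT 1 and KI 1, and another shared by KI 2 and KI 3, while WT 2 and WT 3 each have their own. The labels do not say what that part stands for. Only the prefix of WT 1 and KI 1 holds both genotypes. With the prefix as a term in the edgeR fit of the 6 libraries, 402 genes were called (296 rose, 106 fell), both called genes among them. In that fit the genotype difference is KI 1 minus WT 1 alone, and its 1 residual degree of freedom is the difference between KI 2 and KI 3, so the spread among WT animals does not enter. With the 2-month libraries added, 3 of 6 prefixes held both genotypes and 4 degrees of freedom remained. No prefix held libraries of both ages, so the genotype difference at 6 months was still KI 1 minus WT 1 alone. Most of the degrees of freedom in that fit came from the 2-month libraries. That fit called 4 genes at 6 months, all higher in KI, and neither ENSRNOG00000024889 nor ENSRNOG00000030069 was among them (edgeR adjusted p 0.687 and 0.853).

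Leaving out WT 1 changed the number of calls from 2 to 199, of which 188 rose and 11 fell. That is 1.28% of 15531 genes tested. Leaving out any other single library gave 1 to 4 calls. In the 188 genes the median deviation from the mean of the 6 libraries was 0.167, 0.343 and 0.342 log2 CPM in KI 1 to KI 3, 0.0978 in WT 1, -0.493 in WT 2 and -0.422 in WT 3. WT 1 was thus close to KI 1 and far above the other WT libraries. Its level lay between the other WT libraries and the lowest KI library in 119 of the 188 genes, and at or above the lowest KI library in 67.

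By size, WT 1 exceeded the mean of WT 2 and WT 3 by a median of 0.572 log2 in these genes, and KI exceeded WT 1 by a median of 0.187. The difference among WT animals was therefore larger than the difference between KI and WT 1. These genes were called in a comparison without WT 1, so the values describe them and do not test them.

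**Figure D3:**
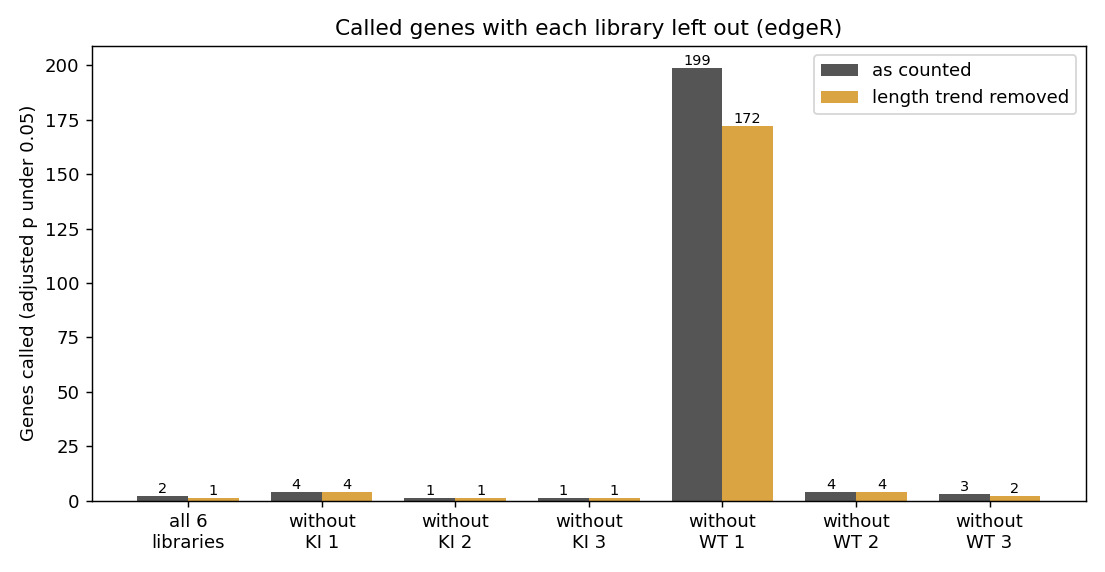
Number of genes called by edgeR (vertical axis, adjusted p under 0.05) with all 6 libraries and without each in turn, for counts as deposited and with each library's trend on gene length removed. Only the fits without WT 1 exceed 4 calls, with 199 and 172.

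DESeq2, run on all 6 libraries, called 98 of 12692 genes with an adjusted p, which is 0.772%, 90 of them higher and 8 lower in KI. It shared 1 call with edgeR, ENSRNOG00000024889, and gave ENSRNOG00000030069 no adjusted p. Of the 98 genes, 61 were also among the 199 called without WT 1. On counts simulated for this comparison with no change in most genes, 32 of 163 DESeq2 calls and 9 of 127 edgeR calls were false. The simulation was 1 run that used edgeR's own spread estimates, the same spread in both groups and no length trend. It therefore gives no rate of false calls for the real libraries and does not rank the tools.

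Among the 100 genes with the smallest p by edgeR, 87 were higher and 13 lower in KI, and the groups did not overlap in any of them. WT 1 was the WT library nearest to the KI mean in 66, WT 2 in 21 and WT 3 in 13. Over all 15377 genes tested the counts were 7583, 3624 and 4170.

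WT 2 had most of the genes in which 1 library stood alone. A gene was counted when a library was at least 2-fold from the median of the other 5 and beyond all of them. WT 2 was lower in this way in 219 of 12944 genes, 1.69%, and higher in 15. WT 1 was lower in 31 and WT 3 in 33, whereas each KI library was lower in 5 to 11. Of the 219 genes, 90 were in the longest of 5 length classes (defined below) and 17 in the shortest. The classes were cut over all 15377 genes tested, and their shares among the 12944 were not counted. Of the 219, 4 were striatum-enriched, 0 cortex-enriched and 3 cerebellum-enriched. Such genes were rare in general, with 205, 128 and 277 among all 15377 genes tested, those of low level included.

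Genes in which a WT library is far below all others have a lower WT mean by that choice, so the values here describe them and test nothing. In 214 of these 219 genes the log2 difference was above 0, and the median was 0.498. In 49 the unadjusted p was under 0.05, in 44 all KI libraries were above all WT libraries, and 0 were called. The other WT libraries had median deviations of 0.243 for WT 1 and -0.103 for WT 3 in these genes.

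Gene length separated the libraries along similar lines. A gene's relative effective length is its count divided by its TPM-scale value, expressed against the median gene, since absolute lengths are not in the files, and genes were split into 5 length classes of equal size. Spearman's rho between a gene's deviation in a library and its length was 0.0926, 0.256 and 0.253 in KI 1 to KI 3, 0.186 in WT 1, -0.331 in WT 2 and -0.189 in WT 3. Longer genes thus had higher levels in the KI libraries and WT 1, and lower levels in WT 2 and WT 3. The means were 0.201 ± 0.0935 in KI and -0.111 ± 0.267 in WT (SD, n = 3 each), with an exact permutation p of 0.2 (adjusted 0.7 over 7 library measures).

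The trend ran through the differences between genotypes. From the shortest to the longest class of genes, the median log2 difference was -0.121, -0.0633, -0.0336, 0.0117 and 0.0788. All 3 KI libraries were above all 3 WT libraries in 5.04% of the shortest class and 11.6% of the longest. All 3 were below in 13.4% of the shortest and 1.5% of the longest. In the longest class WT 2 had a median deviation of -0.15 and WT 3 of -0.0505, while WT 1 had 0.0653, almost the same as KI 2 and KI 3.

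Removing each library's smooth trend on length levelled the shares over length, which follows largely from the removal itself. It kept most of the genes without overlap. The genes without overlap were then 1090 above and 962 below, of which 919 and 737 were the same genes as before. The share above became 7.25% in the shortest and 6.34% in the longest class. With all 6 libraries, 1 gene was called, and without WT 1 there were 172 calls (164 rose, 8 fell), 141 of them shared with the 199. Fitted without WT 1, the median log2 difference of the 188 genes was 0.75 with counts as deposited and 0.687 with the trend removed. RNA integrity values per library were not used here, and their part in the trend was not tested.

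**Figure D4:**
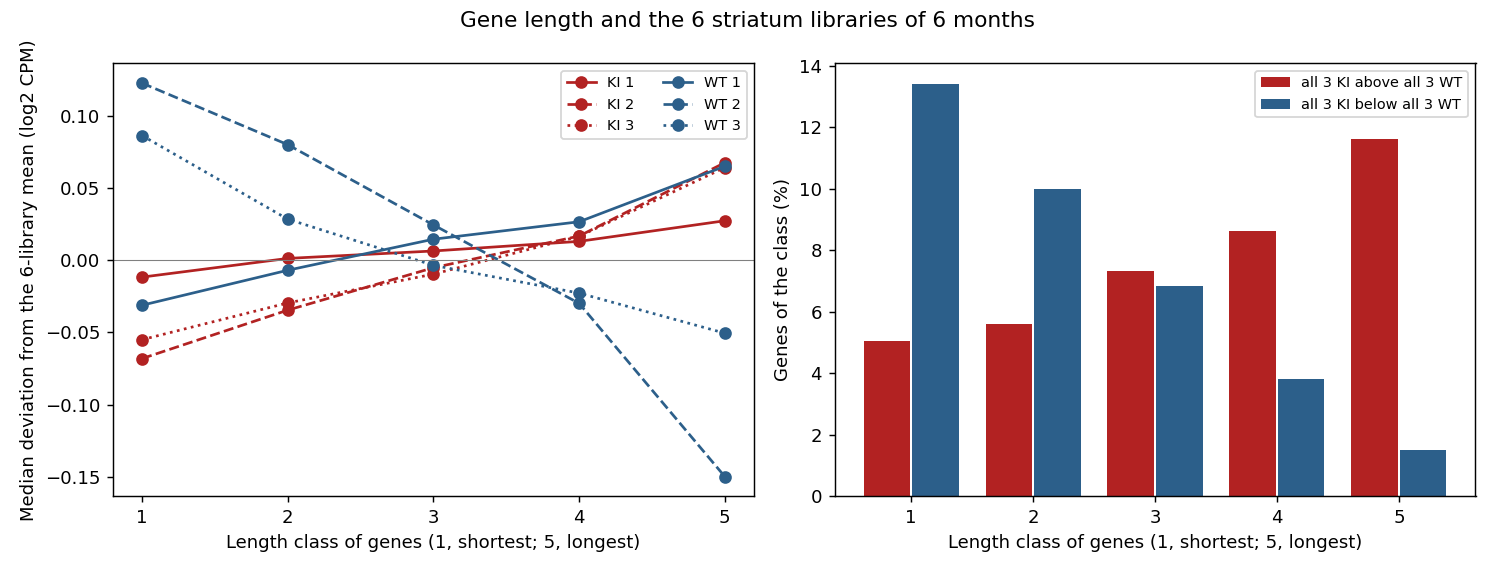
Left, median deviation of each library from the mean of the 6 (log2 CPM) in 5 classes of genes by relative effective length; right, percentage of genes in each class in which all 3 KI libraries were above or below all 3 WT libraries. WT 2 and WT 3 slope down while the KI libraries and WT 1 slope up, and the share of genes with KI above grows from 5.04% to 11.6%.

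Striatum-enriched genes were not lower in KI on balance. Of 206 such genes, 205 were tested, 0 were called, 114 were higher and 91 lower in KI, and the median log2 difference was 0.0241. The groups did not overlap in 12 with KI above, 5.85%, and in 5 with KI below, 2.44%, beside 7.63% and 7.1% of all tested genes. In bulk tissue, fewer cells of a type and less RNA per cell cannot be told apart, so these levels describe the tissue as a whole.

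Mean levels over the tested striatum-enriched genes were 3.14, 3.13 and 3.13 log2 CPM in KI 1 to KI 3 and 3.09, 2.99 and 3.11 in WT 1 to WT 3. All KI libraries were above all WT libraries, but by little. The means differed by 0.0674 (3.13 ± 0.00641 in KI and 3.07 ± 0.0638 in WT, SD, n = 3 each). The exact permutation p was 0.1, the smallest possible, and 0.7 when adjusted over the 7 library measures. WT 2 was the lowest library, and without it the difference was 0.0314. The median log2 difference of these genes was 0.000125 without KI 1.

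Cortex-enriched genes had lower levels in KI on balance, with 90 of 128 tested genes lower and 38 higher, against 8191 lower and 7186 higher over all tested genes. Their median log2 difference was -0.171, and 0 were called. Of the 128, 3 had KI above without overlap, 2.34%, and 10 had KI below, 7.81%, the latter near the 7.1% of all tested genes (7.63% above). Per library their mean was 1.26, 1.28 and 1.26 log2 CPM in KI 1 to KI 3 and 1.35, 1.61 and 1.12 in WT 1 to WT 3. WT libraries thus lay on both sides of the KI libraries, with WT 2 highest and WT 3 lowest. The exact permutation p for the difference of -0.0951 was 0.7. Without WT 2 that difference was 0.0304 and the median log2 difference of these genes -0.0388; without WT 3 they were -0.217 and -0.223. WT 2 therefore combined the highest cortex-enriched and the lowest striatum-enriched level, and how much cortex each dissection held was not tested.

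Cerebellum-enriched genes did not separate the groups. Of 277 tested genes, 132 were higher and 145 lower in KI, with a median log2 difference of -0.0183 and 0 called. Without overlap, 26 had KI above, 9.39%, and 18 had KI below, 6.5%, beside 7.63% and 7.1% of all tested genes. Their library means were 1.92, 1.91 and 1.93 log2 CPM in KI and 2.04, 1.79 and 1.94 in WT, again with the KI libraries between the WT libraries.

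Genes with KI above at 6 months were mostly lower in KI in older striatum. The other ages share no library with the 6-month comparison. The libraries of 10, 19 and 24 months came from both sexes, and their fits had a term for sex. Those of 2 and 6 months were from males and carried over from an earlier series. Age can therefore not be told apart from series here. Of the 1173 genes with KI above at 6 months, 60.9% were higher in KI at 2 months, 37.5% at 10 months, 26.5% at 19 months and 25.3% at 24 months. Of all tested genes, 48.9%, 52.4%, 53.2% and 52.7% were higher in KI at these ages. The 1091 genes with KI below at 6 months were higher in KI in 44.2%, 60.6%, 74.5% and 71.7%.

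Sizes at the other ages were small. The median log2 difference of the 1173 genes was 0.0276, -0.0211, -0.036 and -0.093 at 2, 10, 19 and 24 months, against 0.345 at 6 months, and 0 of them were called at any of these ages with edgeR. Of the 1173 genes, 43 were higher and 14 lower at an unadjusted edgeR p under 0.05 at 2 months. The counts were 10 and 21 at 10 months, 5 and 4 at 19 months, and 5 and 37 at 24 months. Over all tested genes they were 444 and 497, 411 and 471, 175 and 74, and 136 and 309. More genes were thus lower than higher at 24 months over all tested genes as well. The 188 genes that rose without WT 1 were higher in KI in 60.8%, 21%, 18.7% and 10.2% at these ages. The 90 genes that rose with DESeq2 were higher in 80.9%, 27%, 14.4% and 6.74%. Genes of 1 tissue vary together, so these shares are descriptions and carry no test.

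The relation of the genotype difference to gene length also differed between the sets of libraries of each age. As above, age cannot be told apart from series. Spearman's rho across genes between the log2 difference and relative length was -0.0409 at 2 months, 0.333 at 6 months, -0.132 at 10 months, -0.212 at 19 months and -0.0996 at 24 months. Genes are not independent, and these values have no p. With each library's length trend removed at the other ages, the 1173 genes were higher in KI in 63.8%, 37.5%, 30.1% and 29.5%, beside 50.6%, 48.8%, 51.2% and 54.8% of all tested genes. For this list the lower shares at 10, 19 and 24 months were also present with the length trend removed. The 1091 genes with KI below at 6 months were then higher in KI in 44.4%, 48.2%, 60.4% and 70.1%. At 10 months that share was near the 48.8% of all tested genes, so the excess seen there with counts as deposited was not present with the trend removed, and at 19 months it was smaller.

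**Figure D5:**
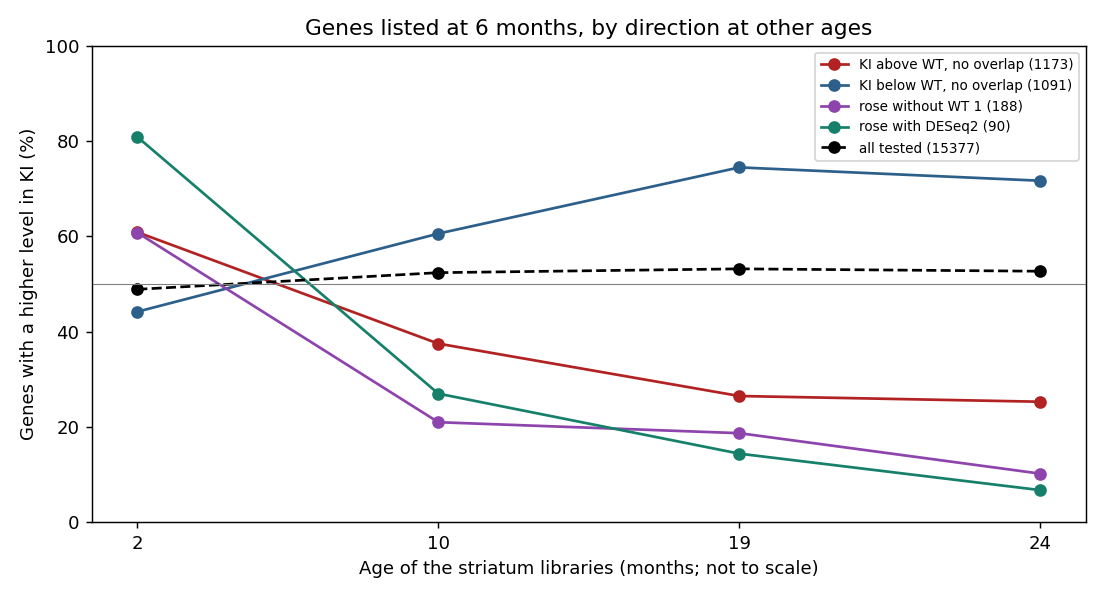
Percentage of genes with a higher level in KI than in WT striatum (vertical axis) at 2, 10, 19 and 24 months, for genes listed from the 6-month libraries (number of genes in brackets) and for all tested genes (dashed). Genes with KI above at 6 months go from 60.9% at 2 months to 25.3% at 24 months, while all tested genes stay between 48.9% and 53.2%.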

How the data were processed

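Libraries were grouped by the labels' genotype, region, age and sex. Frozen tissue gave total RNA (Qiagen kit) for standard Illumina libraries, per the labels' protocols. The authors deposited estimated counts for 32883 genes, 7.79% of values not whole, which were rounded here. The second table the authors deposited is named FPKM but sums to the same TPM total in each library, so it was treated as TPM. Per the file headers, the reference was Rat.B6.0. Aligner and counting tool: not given in the sources used here.

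Genes kept by filterByExpr were tested with edgeR 4.0.16 in R 4.3.3 (TMM, robust quasi-likelihood F test) on the 6 libraries, with Benjamini-Hochberg adjustment over all genes tested. Log2 CPM used a prior count of 2. Alternatives used DESeq2 1.42.0 and limma 3.58.1, among others. The 6 minus 2 months difference was an interaction term. Length trends were fitted by lowess (span 0.3) and entered as offsets. On counts simulated for 15377 genes of this comparison, edgeR recovered 86 of 100 genes changed by 1 log2 and 32 of 100 changed by 0.5 log2. The changed genes were drawn from those with a mean above 1 CPM. It was 1 run, with equal spread in both groups and no length trend.

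Named genes are those 2 with the smallest p in each direction, called genes first, otherwise with a mean of at least 1 log2 CPM and no overlap. The genes, lists and comparisons were chosen with earlier results of these data known. The design assumed whole counts. No identifier matched the gene table used here (0 of 32883), so no list of named genes was tested and no sequence is printed. P-values measure the spread between animals, but the fits with the identifier prefix as a term use only part of that spread.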

Additional observations from a re-analysis of the deposited data

Results flagged for a closer look

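In groups of 4 to 10 striatum libraries at other ages, 1 library stood far from the rest for a named gene in 7 of 24 groups looked at. Chance flags about 1 in 20 groups, the nominal rate for normally spread values, which on-off counts are not. ENSRNOG00000024889 was at 12 CPM in 1 WT library of 10 months, with the next at 5.41 CPM. At 10 months, ENSRNOG00000030069 was on in a single KI library at 1.03 CPM and a single WT library at 2.16 CPM. At 19 months it was on in 1 KI library at 1.17 CPM and in 1 WT library at 1.17 CPM. In each of these 4 groups the next library was listed near 0, at 1.47e-07 CPM or less. These values are the steps described above, seen in both genotypes.

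ENSRNOG00000020369 was at 882 CPM in 1 WT library of 10 months, with the next at 268 CPM, and at 47.8 CPM in 1 KI library of 10 months, with the next at 33.8 CPM. The medians of those groups were 29.5 CPM (WT) and 27 CPM (KI). In WT cortex of 19 months its median was 81.3 CPM and in WT cerebellum of 19 months 176 CPM.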

How the results depend on the processing

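The number of calls, 2, was also 2 with RLE size factors and with limma on log2(TPM-scale value + 1). Counts of calls moved with other choices: 98 with DESeq2 and 99 with DESeq2 on unfiltered counts, 6 with no count filter, 1 with a filter of 1 CPM in 3 libraries, and 6 with limma on log2(TPM-scale value + 0.1) without a filter. With 2 and 6 months in 1 fit there were 0 calls (2186 at an unadjusted p under 0.05, edgeR adjusted p 0.16 and 0.244 for the called pair). With all striatum libraries in 1 fit there were 0 calls (393 unadjusted, adjusted p 1 for both). Length slope as a covariate gave 1 call, and removing the smooth length trend gave 1. Without the genes whose counts come in steps, both called genes among them, there were 0 calls. That alternative was chosen after seeing the data. So were DESeq2 on unfiltered counts, groups defined at 19 months and the alternatives for genes without overlap. The identifier prefix as a term, also chosen after seeing the data, gave 402 calls in the 6 libraries and 4 with 2 and 6 months in 1 fit. Leaving out each library in turn gave 1 to 199 calls, and 1 to 172 with the length trend removed. Apart from the changed sets of samples and genes, the cause was not tested.

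Same-numbered KI and WT libraries did not deviate together (correlations of -0.315, -0.139 and 0.00667). These values gave no sign that the numbers pair animals, but so few libraries cannot settle it, and KI 1 and WT 1 share an identifier prefix. With a replicate block 5 genes were called (4 rose, 1 fell). The 6 minus 2 months difference had 1 call with DESeq2. The median log2 difference of striatum-enriched genes was 0.0909 with the length slope as a covariate, and on log2(TPM-scale value + 1), 695 genes had KI below without overlap. ENSRNOG00000024889 kept its direction in 21 alternatives and lost its call in 3, with adjusted p from 5.74e-24 to 1, and ENSRNOG00000030069 kept its direction in 20 and lost its call in 11, from 0.00208 to 1. ENSRNOG00000003160 and ENSRNOG00000020369 stayed lower in KI in all 22 alternatives and passed in 3 and 2, with lowest adjusted p of 0.000561 and 0.0125. With 3 animals a group, changes of 0.5 log2 were mostly missed in the 1 run of simulated counts, which had equal spread in both groups.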
